A study of Mus musculus with 4 samples.

Results

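In the hippocampus of adult mouse offspring, 5238 cytosines in the CHH context (a C whose next 2 bases are not G) were methylated at 20% or more in both libraries that were sequenced. They were chosen from 1518846 CHH sites read at least 20 times in each library, of which they made up 0.345%, and from 13435222 CHH sites listed in all. The levels and read numbers therefore chose the sites and are given here as descriptions. What the choice did not use is their sequence, their place in the genome and the levels of their CpG and CHG neighbours. Neighbours in the CHH context can themselves be among the 5238, so their levels are partly set by the choice.

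The libraries were made by reduced representation bisulfite sequencing, in which DNA is cut by MspI and TaqαI before bisulfite treatment. One library came from wild type CD-1 female offspring of dams that had received estriol (E3) by osmotic pump for 7 days from day 9 of gestation, and the other from wild type CD-1 females whose dams had received vehicle (CT). The labels give an age of 8 weeks. There was 1 library per group and no source used here says how many mice it held, so a difference between the libraries cannot be told apart from a difference between mice. The mean read number over all listed CHH sites was 35.0 in the E3 library and 12.1 in the CT library.

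Methylation outside CG is laid down in postnatal neurons mainly by DNMT3A, which prefers CA and above all CAC. It builds up over the bodies of genes while neurons mature and is low in most dividing cells. In bisulfite data a C that stays a C is counted as methylated, so unconverted DNA, a misplaced read or a base that differs between the CD-1 mice and the reference would be counted in the same way.

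Single examples show the surroundings of some deeply read sites. The following 31-base stretches of the mm10 build (GRCm38.p6, RefSeq) have their C in the centre, occur once in the build after conversion, stand alone and were read at least 50 times in both libraries. This choice was made with the values in view. The capitals mark the C and the 2 bases after it.
Iho1, chr9:108427677-108427707, + strand: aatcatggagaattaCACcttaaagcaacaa
Adam12 intron, chr7:133976393-133976423, + strand: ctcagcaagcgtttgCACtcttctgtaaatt
Cdkal1 exon, chr13:29613793-29613823, + strand: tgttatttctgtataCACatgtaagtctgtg
Rabgap1l intron, chr1:160564354-160564384, - strand: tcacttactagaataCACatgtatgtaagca

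At the Iho1 site, in a gene of meiotic recombination, the level was 32% of 146 reads in the E3 library (Wilson 95% interval 25.2 to 40.1%) and 36% of 72 reads in the CT library (26 to 47.6%). At the Adam12 site, in a gene for a membrane metalloprotease, it was 35% of 132 reads (27.3 to 43.3%) and 23% of 52 reads (13.7 to 36.1%). At the Cdkal1 site, in a gene for a tRNA-modifying enzyme, it was 49% of 126 reads (40.6 to 57.8%) and 34% of 56 reads (22.9 to 47.0%). The intervals of the libraries overlapped at each of these sites, and all intervals cover counting error only, since reads are not independent molecules. They did not overlap at every site of the same kind. A CAC between genes at chr13:97688573 was at 37% of 126 reads in the E3 library (29.4 to 46.0%). In the CT library it was at 86% of 50 reads (73.8 to 93.0%). Of the 5238 sites, 28 were a CAC of this kind.

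The C was followed by A at 79.3% of the sites, against 33.4% of all CHH sites with 20 reads. CAC alone held 2913 sites, or 55.6%, against 10.5% of the sites tested. Among the 342 sites read at least 50 times in both libraries, CAC held 29.8%. Of the 160075 CAC sites tested, 1.82% were methylated at 20% or more in both libraries, against 0.445% of CAT, 0.357% of CTC and 0.284% of CAA sites. The lowest share was 0.0330%, in CCT. CTC held 614 sites and was the only non-CA triplet of the 6 with a share above that of CAA. These 4 triplets kept their order in the mean over all tested sites, methylated or not, which was 4.5% in CAC in the E3 library and 4.86% in the CT library, against 1.67% and 1.66% in CCC.

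Bases beyond the triplet differed too. A T stood 2 bases before the C at 46.7% of the sites and at 27% of all tested ones, and a C stood 3 bases after it at 39.7% against 22.6%. Among 5-base words with at least 1000 tested sites, TACAC had the largest share, with 517 of 7361 sites, or 7.02%. TGCAC followed with 4.31% and CACAC with 3.56%, while GGCAC had 0.773%. Among 7-base words with at least 200 tested sites, 53 of 280 sites in TACACCC passed in both libraries, or 18.9%, and 63 of 354 in TACACTC, or 17.8%. The mean over all 280 TACACCC sites was 15.1% in the E3 library and 16.1% in the CT library.

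The levels of the 5238 sites had a median of 31% in the E3 library (quartiles 24 and 48%) and 43% in the CT library (quartiles 30 and 65%). The CT level was the higher one at 3471 sites, the E3 level at 1530, and they were equal at 237. The levels lay within 10 points of each other at 2532 sites, or 48.3%, and more than 50 points apart at 226. Median read numbers at the sites were 50 and 25. The CT library, with fewer reads, had 61713 sites at 20% or more, against 15671 in the E3 library. The 5238 shared sites made up 33.4% of the E3 list and 8.49% of the CT list. For CAC alone the 2913 shared sites were 42.0% and 20.1% of the lists. More CAC sites passed in each library to begin with. Of the CAC sites tested, 4.33% passed in the E3 library and 9.04% in the CT library, against 1.03% and 4.06% of all tested sites. The larger overlap for CAC is therefore not read as better agreement. When every site was thinned to 20 reads in both libraries and the choice was made again, 6955 sites passed, with medians of 30% in the E3 and 40% in the CT library, and 4645 of them were among the 5238.

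**Figure D1:**
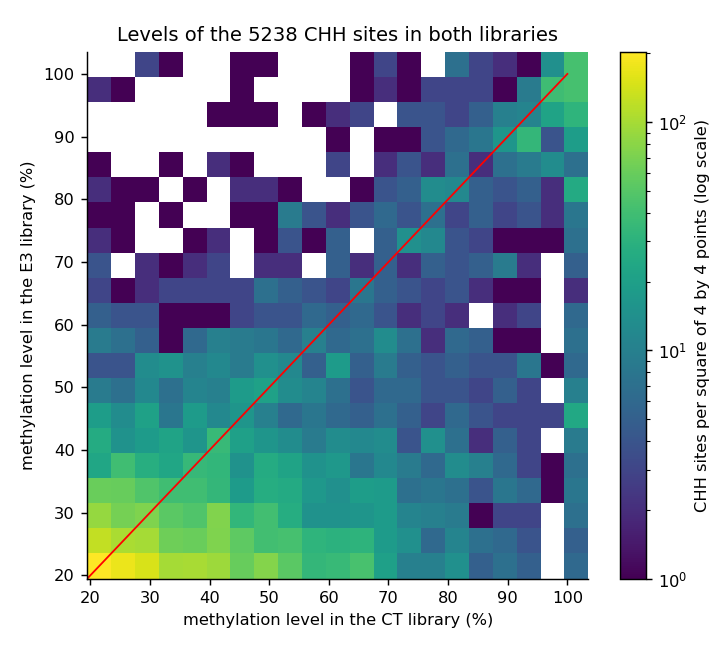
Methylation level of each of the 5238 CHH sites in the CT library (x axis, %) and in the E3 library (y axis, %), as the number of sites per square of 4 by 4 points on a log colour scale, with a red line where both are equal. Most sites lie at the lower left, more lie below the line than above it (3471 against 1530), and a second group lies near 100% in both.

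The thresholds cut through a dense part of the data. The level was exactly 20% at 378 sites in the E3 library and at 247 in the CT library, and 894 sites had exactly 20 CT reads. Just outside, 378 sites were at 19% in the E3 library and passed in the CT library, 150 were the other way round, and 479 had 19 CT reads and passed the rest.

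The read numbers carried a further pattern. Totals were even at 73.5% of all tested CHH sites in the CT library and at 65.7% in the E3 library, and at 72.9% and 63.4% of the 5238 sites. The number of methylated reads, rebuilt from level and total where the total was under 100, was even at 74.2% of the chosen sites in the CT library and at 69.8% in the E3 library, against 61.8% and 64.4% of all tested sites with a methylated read. A base covered by both mates of a read pair would be counted in pairs, which was not tested.

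By the study's rule for single sites, a difference of 10 points and p under 0.05 in a 2-sided Fisher's exact test, 1293 of the 5238 sites differed between the libraries, or 24.7%, where 6.27% of all tested CHH sites did. The levels that chose the sites enter this test, so nothing is read from the higher share. Of the 1293, 169 were higher in the E3 library and 1124 lower. Of all tested sites, 1.23% were called higher and 5.04% lower. A difference of 25 points with p under 0.05 by Fisher's exact test was met by 1128 sites, or 21.5%. Of all tested sites, 2.47% met it. With 10 points, 504 sites, or 9.62%, had a Benjamini-Hochberg adjusted p under 0.05 over all sites by Fisher's exact test. The share of all tested sites that did was 2.15%. With all read numbers halved, 671 sites were called, 71 higher and 600 lower in the E3 library, and 2.75% of all tested sites.

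The sites furthest apart went both ways. In an intron of Gm15322, a C in CAT was at 98% of 54 reads in the E3 library (90.2 to 99.7%) and 20% of 20 reads in the CT library (8.07 to 41.6%). In an intron of Gbx1, a homeobox gene, a C in CAC was at 100% of 40 reads against 31% of 26, in a repeat found 206 times in the build. In the other direction, a C in CAC in an intron of Tmem163, a zinc transporter gene, was at 21% of 58 reads in the E3 library (12.3 to 32.8%) and 100% of 22 in the CT library (85.1 to 100%). Another, within Slc10a4, a transporter gene of the bile acid family, was at 20% of 25 reads against 100% of 20. A CAC in an intron of Septin9, a cytoskeletal GTPase gene, was at 25% of 64 reads against 100% of 26. These sites were picked for their difference, which is a description. Of the 10 sites furthest apart in each direction, 3 of those higher in the E3 library and 7 of those lower in it were CAC.

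Most sites stood alone. With sites at most 100 bases apart joined, 3827 of the 5238, or 73.1%, had no other near them and 760 came in pairs. The other 651, or 12.4%, formed 114 clusters of 3 or more, with a median length of 36 bases. All sites of a cluster lay on 1 strand in 97 of the 114. Of the CHH sites tested on the main strand of the clusters, 630 of 1268 were themselves among the 5238. CAC held 59.4% of the sites outside clusters and 29.0% of those inside.

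The largest clusters are shown because they lie in simple repeats, in which the same word recurs, or in plain sequence in which nearly every tested C of the strand was counted as methylated. Each is read on the strand that carries the sites, in mm10, and the capitals mark the sites.
Between genes, chr10:129113677-129113867, + strand: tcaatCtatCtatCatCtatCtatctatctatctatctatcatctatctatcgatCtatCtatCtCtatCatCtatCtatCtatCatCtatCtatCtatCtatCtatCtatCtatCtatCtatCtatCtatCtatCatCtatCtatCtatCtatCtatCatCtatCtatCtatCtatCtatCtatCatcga
Between genes, chr4:130205265-130205354, - strand: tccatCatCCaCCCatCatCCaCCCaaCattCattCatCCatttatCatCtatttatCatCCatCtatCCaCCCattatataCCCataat
Dpf3 intron, chr12:83314961-83315038, + strand: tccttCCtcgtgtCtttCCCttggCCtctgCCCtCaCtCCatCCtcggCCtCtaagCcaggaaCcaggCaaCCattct
Dab1, chr4:104404736-104404792, - strand: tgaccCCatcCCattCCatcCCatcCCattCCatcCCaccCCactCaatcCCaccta
Lcp1, chr14:75192480-75192574, + strand: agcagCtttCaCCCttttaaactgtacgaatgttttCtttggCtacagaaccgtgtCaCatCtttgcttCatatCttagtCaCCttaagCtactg

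The cluster of 40 sites on chromosome 10 lay in a CTAT repeat, with levels of 50 to 97% in the E3 library (median 93%) and 49 to 98% in the CT library (median 98%). Another 26 sites lay on the same strand of chromosome 10, at 129114421 to 129114542, with medians of 80% and 100%. Its median site had a converted sequence found 261 times in the build, and that of the cluster of 40 one found 5058 times, so reads from other copies could have been placed there, which was not tested. On chromosome 4, 31 sites over 80 bases had levels of 87 to 88% in the E3 library and 89 to 100% in the CT library, with a median of 11 copies. The levels within this cluster were nearly the same from site to site.

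In Dpf3, a gene for a subunit of the BAF chromatin remodelling complex, 25 sites over 68 bases ranged from 31 to 56% in the E3 library (31 or 32 reads) and from 92 to 100% in the CT library (24 reads). All 25 CHH sites tested on the strand were among the 5238 and all 25 were lower in the E3 library, and 21 of them had a sequence found once in the build. Within the stretch, 3 CHG sites on the strand averaged 44.3% and 100%, and 6 CHH sites on the other strand averaged 0% and 21%. The strand of the 25 sites is the one opposite to the gene's own. In Lcp1, which encodes an actin-bundling protein of blood cells, 16 sites had medians of 30% and 40%, each from 20 reads. In an intergenic cluster of 14 sites on chromosome 9, at 82763430 to 82763500, the E3 level was 20 to 32% and the CT level 45 to 50%. Sites of 1 cluster can share reads and are not independent measurements.

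The 19 sites in Dab1, whose product relays the Reelin signal in migrating neurons, differed from these. Their medians were 98% in the E3 library and 96% in the CT library, from a median of 301 and 5785 reads, the reverse of the usual order of depth. The median site had a converted sequence found 22 times in the build, and only 1 of the 19 had a sequence found once. On the same strand the other 8 of the 27 tested sites were between 0 and 6% in either library. The same reversal was seen in the cluster on chromosome 1, at 144730075 to 144730120, with medians of 100% and 99% from 216 and 5519 reads, and in 16 sites of Dap, a gene named for a role in cell death, with 64 to 67 reads in the E3 library and 1570 to 1711 in the CT library. The median site had a sequence found 7379 times in the build in the chromosome 1 cluster and 14440 times in both Dap clusters. Reads from other copies could have been placed at all of these clusters, that of Dab1 included, which was not tested. Over all 5238 sites, 400 had more reads in the CT library.

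**Figure D2:**
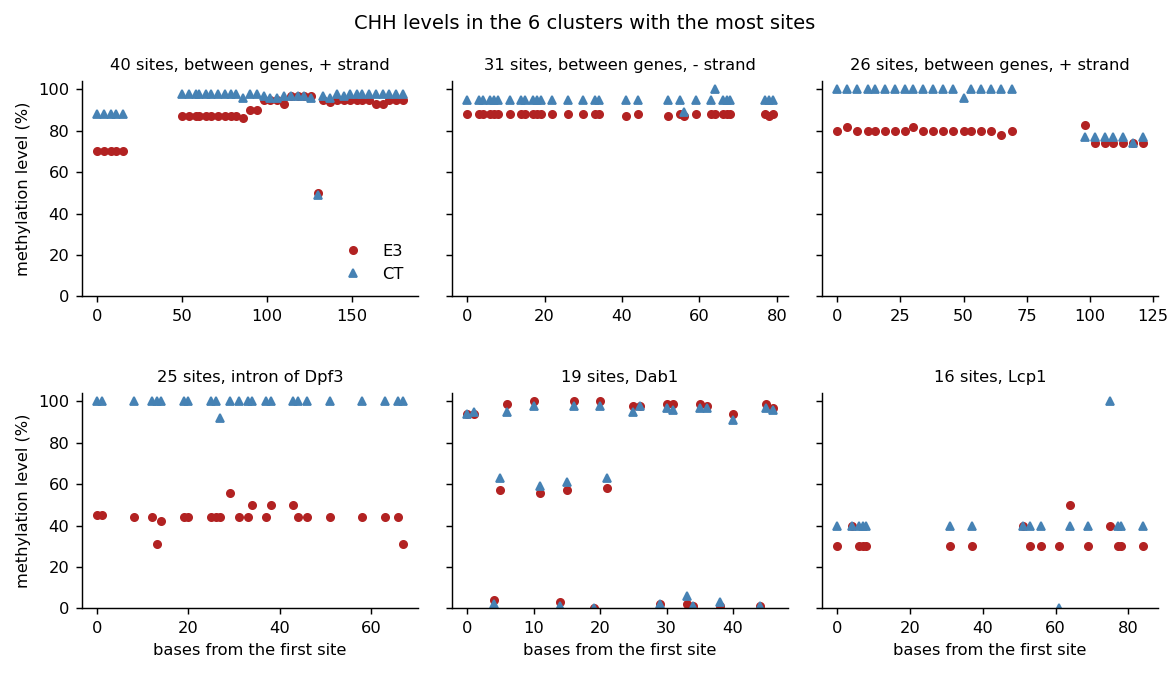
Methylation level (y axis, %) of every tested CHH site on the main strand of the 6 clusters with the most sites, against the distance in bases from the first site (x axis). Circles are the E3 library and triangles the CT library. The levels run nearly flat along most of the stretches, the libraries lie far apart in Dpf3 (medians 44 and 100%), and in Dab1 sites near 100% alternate with sites near 0%.

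Over the 114 clusters, the range between the lowest and highest site had a median of 17.5 points in the E3 library and 23.5 in the CT library. CHG sites, in which the base 2 after the C is a G, lay within 69 of the clusters and had a median level of 5% and 7.30%. On the opposite strand, 62 clusters had CHH sites, with a median of 3% in the E3 library and 4.39% in the CT library.

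The nature of the sites changed with their level. Of the 1393 sites with a mean of 30 to 40%, 65.1% were CAC, 86% had a sequence found once in the build and 21.9% were soft-masked, which marks repeats. Of the 358 sites with a mean of 90% or more, 17.0% were CAC, 40.5% were found once and 62.8% were soft-masked. Over all 5238 the soft-masked share was 27.7%, against 27.6% of the sites tested, and it was 41.5% among sites with 30 reads in both libraries and 77.5% among the 342 with 50. Of the 5238, 79.0% were found once, against 78.1% of 20000 tested sites drawn at random.

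**Figure D3:**
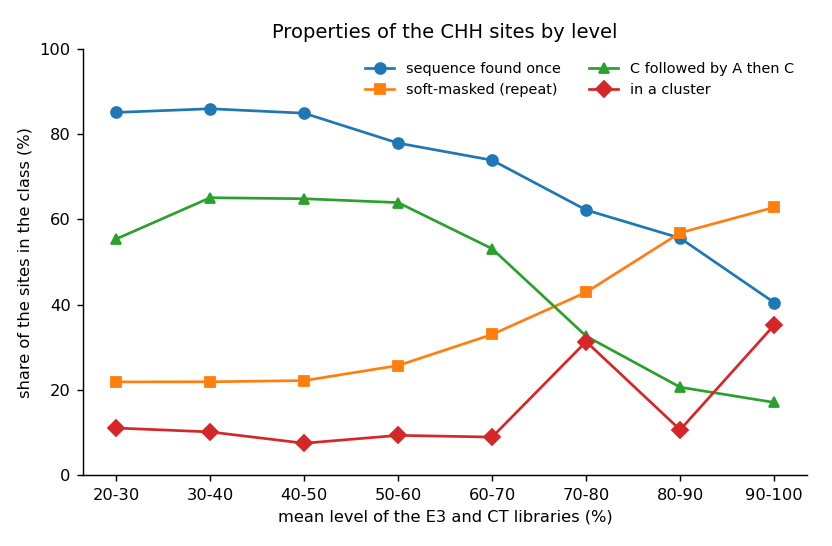
Share of the sites (y axis, %) that had a sequence found once in the build, were soft-masked, were CAC or lay in a cluster, by the mean level of both libraries (x axis, %). CAC falls from 65.1% at 30 to 40% to 17.0% at 90 to 100%, while soft-masked sites rise from 21.9% to 62.8%.

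A few words were frequent among the highest sites. TCGA, which TaqαI cuts, differs by 1 letter from TCAA, TCCA and TCTA. Those 3 words, with the site as their C, held 2.13% of the 4184 sites with a mean under 60%, 35.6% of the 160 sites at 80 to 90% and 42.7% of the 358 at 90% or more, against 8.97% of all tested sites. At 90% or more in both libraries were 245 sites, of which 106 had 1 of these words, 63 of them TCAA. Outside clusters 178 sites were at this level, of which 73 had 1 of the words, 62 of them TCAA. The sites with TCCA or TCTA at this level therefore lay mostly in clusters. TCAA alone was 3.01% of all tested sites. Of the same 245, 65, or 26.5%, lay over 300 bases after the nearest cut site of the build, against 5.44% of the 5238 and 1.46% of the tested sites. Whether CD-1 DNA differs from the build at these positions was not tested.

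Of the 42 sites at 100% in both libraries, 83.3% had a sequence found once and only 3 lay in clusters. They include the 4 sites below, which are shown because their level was the highest that can be measured, with the C and the 2 bases after it in capitals.
Vmn2r-ps23 intron, chr5:109611784-109611814, - strand: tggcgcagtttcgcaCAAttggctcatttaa
Between genes, chr16:93276205-93276235, + strand: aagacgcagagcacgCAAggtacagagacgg
Between genes, chr14:50065499-50065529, + strand: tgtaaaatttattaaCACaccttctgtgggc
Between genes, chr16:7416783-7416813, - strand: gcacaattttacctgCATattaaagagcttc

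The site in Vmn2r-ps23, a vomeronasal receptor pseudogene, had 116 E3 reads and 24 CT reads, all methylated. The site on chromosome 14 had 80 and 48, and its CHH neighbours within 50 bases on the strand averaged 0.818%. The site on chromosome 16 at 7416798 had 84 and 22 reads, with neighbours at 0.167%. Each of these 3 stood alone. The site with the most reads was a CTT on chromosome 12, at 49492096, with all of 481 and of 8000 reads methylated, and 8004 was the highest read number in the table.

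The neighbours of the 5238 sites were more methylated than those of other tested sites. Within 50 bases on the same strand, the median CpG level was 90%, against 76.5% around all tested CHH sites. The median of the CHG neighbours was 2.63% against 1.19%, and that of the CHH neighbours 3.60% against 1.44%. The CHH neighbours can include other sites of the 5238, so part of their difference was set by the choice. Outside clusters the medians were 89% for CpG, 2.50% for CHG and 3.13% for CHH. A site at 31 or 43% thus usually had neighbours of its own context near 3%. The 760 sites in pairs count as outside clusters, and each can be a CHH neighbour of the other. Inside clusters the CHH neighbours, which include other sites of the cluster, had a median of 27.2%, and the CHG neighbours 13.8%. The same rule applied to CHG gave 900 of 569948 sites, or 0.158%, of which 84.4% were CAG, against 47.1% of the CHG sites tested.

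Fewer of the sites lay around gene starts. Within 1000 bases of a RefSeq transcript start were 265 sites, or 5.06%, against 17.0% of tested sites. Introns held 45.7% against 35.4%, exons 5.65% against 7.46%, and 43.6% lay outside genes and promoters against 40.1%. Within genes of 100 kb or more were 29.5% against 23.4%. Where a single gene strand could be given, 48.6% lay on the gene's sense strand, against 49.5% of tested sites.

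At least 1 of the sites was found in 2095 of 25702 genes with a tested site, or 8.15%, and 1540 of these had a single one. Among protein-coding genes it was 1531 of 16235, or 9.43%. The genes with a site were longer, with a median of 100.3 kb against 25.4 kb over all protein-coding genes. Longer genes also had more sites tested. The share of tested sites that passed was 0.105% in genes under 10 kb and 0.440% in genes of 300 kb or more, and 51.3% of the latter genes had a site against 2.05% of the former. The mean level over all CAC sites tested went from 2.61% in the E3 library and 2.60% in the CT library in genes under 10 kb to 5.31% and 5.70% in genes of 300 kb or more.

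**Figure D4:**
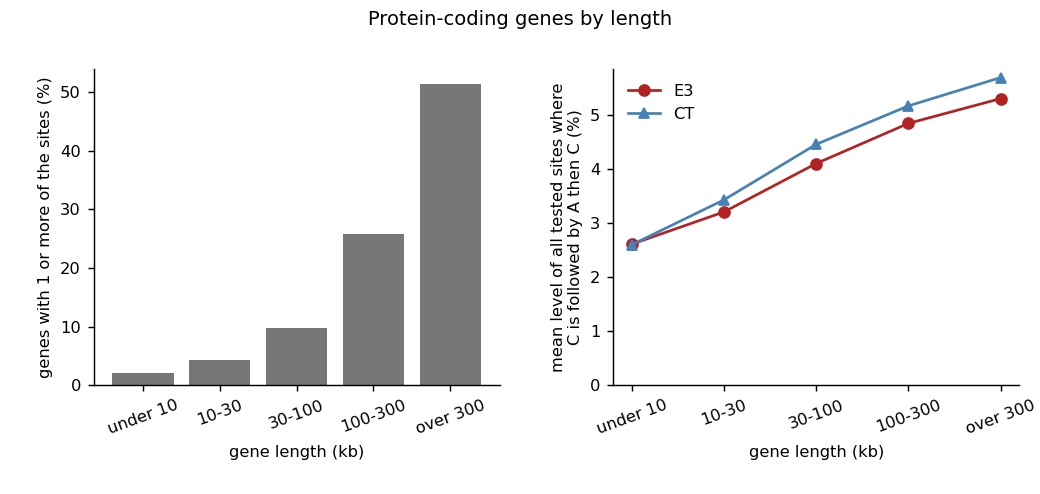
Protein-coding genes by length in kb (x axes). The bars give the share of genes with 1 or more of the 5238 sites (y axis, %), from 2.05% to 51.3%, and the lines the mean level of all tested CAC sites (y axis, %), from 2.61 to 5.31% in the E3 library (circles) and from 2.60 to 5.70% in the CT library (triangles).

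The 20 genes with the most sites, of which the last 3 were the genes with the fewest tested sites among 9 tied at 7, fell into those with clusters and those with scattered sites. All sites lay in clusters in Dpf3 (25 sites), Lcp1 and Dap (16 each), the potassium channel gene Kcnu1 (9), the histamine receptor gene Hrh2, the homeobox gene Barx2 and the guidance cue gene Sema3a (8 each), and Ddx46, for an RNA helicase, and Ssu2 (7 each). Clusters also held 19 of 20 sites in Dab1, 9 of 10 in Micall2, a gene of membrane traffic, and 5 of 8 in Slc4a4, a bicarbonate transporter gene. In Barx2 the 8 sites were at 21% in the E3 library and 20 to 21% in the CT library, and in Sema3a at 40 to 42% and 77%. All sites of Dap, Kcnu1, Hrh2 and Sema3a were soft-masked, and only 3 of the 8 in Sema3a had a sequence found once. None of the Barx2 sites was soft-masked.

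In the other 8 genes most sites lay outside clusters. Npas3, a transcription factor gene of the bHLH-PAS family, had 10 sites over 824 kb, none in a cluster and 7 of them CAC, with levels of 20 to 52% in the E3 library (median 28%) and 25 to 70% in the CT library (median 38%). Wwox, an oxidoreductase gene, had 18 sites, 10 outside clusters, with medians of 27% and 40.5%. Sox5, a transcription factor gene of the SOX family, had 9 sites outside clusters with medians of 30% and 50%. Foxp2, a forkhead transcription factor gene, had 9 sites of which 8 were CAC, at 20 to 45% in the E3 library and 20 to 79% in the CT library, and the CT level was the higher at 6 of them. Of the 9 Foxp2 sites, 1 lay in a repeat found 60469 times in the build. Alk, a receptor tyrosine kinase gene, had 10 sites, 7 of them outside clusters, Efna5, for an ephrin, 8, Lrmda 8 and Epb41, for a protein of the membrane skeleton, 7. Within none of these 8 genes was every site higher in 1 library.

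A pair of Foxp2 sites 2 bases apart and a lone site of Npas3 are shown as examples of sites in introns of these genes, with the C and the 2 bases after it in capitals.
Foxp2 intron, chr6:15254490-15254520, - strand: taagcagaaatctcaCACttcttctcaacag
Foxp2 intron, chr6:15254492-15254522, - strand: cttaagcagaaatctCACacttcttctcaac
Npas3 intron, chr12:53420853-53420883, - strand: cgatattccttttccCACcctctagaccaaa

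The site at 15254505 in Foxp2 was at 20% of 40 reads in the E3 library and 67% of 24 in the CT library, and the site at 15254507 at 45% and 58% of the same numbers of reads, and the intervals of the pair overlapped in each library. The Npas3 site at 53420868 was at 29% of 48 reads and 64% of 22. Its neighbours within 50 bases on the strand averaged 32.9% for CHH and 31.7% for CHG. The medians around sites outside clusters were 3.13% and 2.50%, so the surroundings of this site were not typical.

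Gene lists of the tissue are short, and their shares are read beside the 9.43% of all protein-coding genes. None of 20 excitatory neuron genes, with 1742 tested sites, had any of the sites. None of 9 astrocyte genes had any either, but these held only 474 tested sites, too few for the absence to be read. Of 17 inhibitory neuron genes 5 had one, and 0.628% of the sites tested in this list passed, against 0.305% in all protein-coding genes. Among these genes Reln, Adarb2, Erbb4 and Nxph1 are 301 to 1077 kb long. Reln, which encodes the secreted signal Reelin, had 5 sites, at 21 to 50% in the E3 library and 21 to 55% in the CT library, and 3 were CAC. Adarb2, Dlx5, Erbb4 and Nxph1 had 1 each. That of Dlx5, a homeobox gene, lay before the start of the gene, at 49% and 92% in a cluster. Of 12 oligodendrocyte lineage genes Cldn11 and Pdgfra had 1 each, that of Cldn11 in a repeat found 1016 times. Of 9 microglia genes Sall1 had 1, at 21% and 85%.

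Of 9 estrogen receptor and related genes only Esrrg, an orphan receptor of the estrogen-related family, had any. Its 7 sites, 4 of them CAC and none in a cluster, were spread over introns of a 606 kb gene, at 22 to 100% in the E3 library and 23 to 88% in the CT library, with a median of 33% in both. Of 17 genes of DNA methylation, Dnmt3b, a de novo methyltransferase, had a site at 24% and 26%, and Tet1, which oxidizes methylcytosine, had a site at 25% of 65 reads and 80% of 30 in a repeat found 14 times. Of 45 imprinted genes 5 had a site, namely Snrpn (2, in repeats found 2688 and 16 times), Gnas, H19, Kcnq1 and Trappc9. The Kcnq1 site was at 26% and 25%, and the H19 site, within the gene, at 20% and 41%. Of 5 ribosomal RNA and other repeated genes Rn18s-rs5 had 1, at 21% of 1341 reads and 22% of 520.

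Chromosome X held fewer of the sites. It had 82 among 77534 tested, or 0.106% (Wilson 95% interval 0.0852 to 0.131%), against 0.358% on the autosomes, which ranged one by one from 0.304% to 0.471%, on chromosome 9. Among CAC sites 0.505% passed on X and 1.89% on the autosomes. The mean over all tested CAC sites on X was 3.15% in the E3 library and 3.35% in the CT library, below the lowest autosome in each (4.25% and 4.43%). Reads at tested X sites had medians of 59 and 25, against 52 and 24 on the autosomes. On Y, 802 positions were listed with 20 reads in these females and none passed, with a Wilson upper limit of 0.477%.

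**Figure D5:**
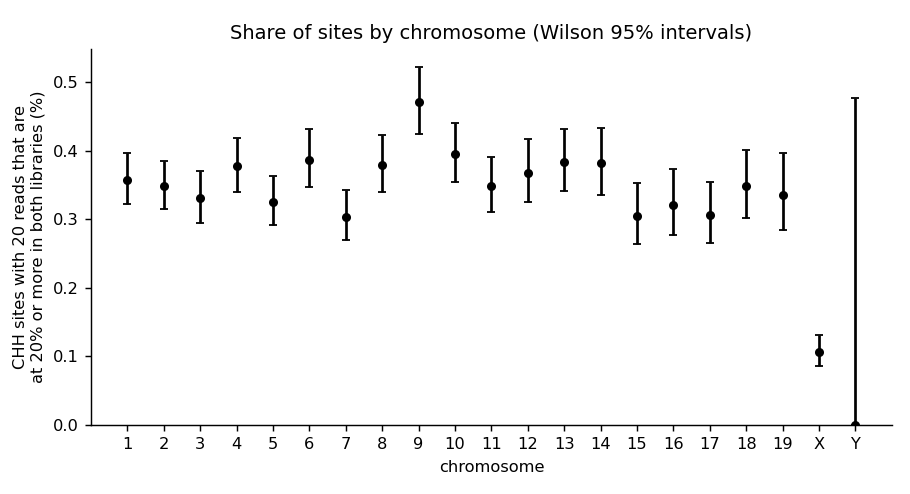
Share of the CHH sites with 20 reads that were at 20% or more in both libraries (y axis, %) on each chromosome (x axis), with Wilson 95% intervals that cover counting error only. X lies at 0.106%, below every autosome (0.304 to 0.471%), and Y at 0.

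Frontal cortex from E3 and CT females was measured in another pair of libraries, for which the CHH table used here lists 13898 sites that the study had called as different. It held 65 of the 5238 sites, 34 higher and 31 lower in the E3 library of the cortex, and 28 were CAC. The listed share was 1.24% of the 5238 and 0.0774% of all tested sites. The mean of both cortex levels had a median of 25% at these 65 and 13.3% at the other listed sites that were tested in the hippocampus. In both cortex libraries, 4 were at 20% or more. A site that the cortex table does not list may have any level there.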

How the data were processed

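Hippocampus DNA was sequenced in 1 E3 and 1 CT library. Per the paper's methods the reads were trimmed with TrimGalore 0.6.4, aligned to mm10 with Bismark 0.19.0 and called with MethylDackel 0.4.0. The deposited CHH, CHG and CpG tables give a read count and a methylation level per site as a fraction with 2 decimals, which was turned into percent. Their p-value columns, deposited by the authors for their own comparison, were not used.

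Sites were matched to the GRCm38.p6 RefSeq genome and gene models. In counts per gene, the 1000 bases before the start of the gene were included. Methylated reads were rebuilt from level and count. Fisher's exact test (numba 0.67.0, checked on simulated data) was run on all 1518846 sites. A converted 31-base sequence was counted in both strands of the build. Genes named were the 20 with the most sites (ties by fewest tested sites), the 10 clusters with the most, the 10 highest and the 10 furthest apart each way, and up to 6 per gene list. The deeply read single CAC sites shown as examples (Iho1, Adam12, Cdkal1 and Rabgap1l) were added with their values in view. The sites and the lists were chosen with earlier results of these data known. Positions on chromosomes 18 and Y are counted but not named. Alternatives were other read and level minimums, merging distances, thinned and halved reads, and sites over 100 reads left out.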

Additional observations from a re-analysis of the deposited data

How the results depend on the processing

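The number of sites depended on the thresholds. It was 24680 with a minimum of 10 reads, 1466 with 30 and 342 with 50, and 18437, 2439 and 987 with levels of at least 10, 30 and 50%. With minimums of 10 and 50 reads the CA share was 76.3 and 71.9%, the CT share 18.1 and 19%, and the CC share 5.62 and 9.06% (5.80% with 30). The CAC share was 48.7% with 30 reads and 29.8% with 50. The share inside genes was 57.1, 49.0 and 43.3% with 10, 30 and 50 reads, and the soft-masked share 24.7, 41.5 and 77.5%, so the deepest sites were mostly repeats. The autosome share was 0.390, 0.383 and 0.623%, and the X share 0.140% with 30 and 0.388% with 50. With 1 count per region CA, CT and CC held 82.8, 13.9 and 3.31%. Without clusters they held 82.9, 14 and 3.14% and CAC 59.4%, and without sites over 100 reads CC held 3.76% and CAC 58.3%. Clusters numbered 494 with 2 or more sites and 38 with 5 or more. Calls between the libraries numbered 504 by adjusted p, 816 after thinning to 20 reads and 671 with halved reads. Of the chosen sites these were 9.62, 15.6 and 12.8%, against 2.15, 2.85 and 2.75% of all tested sites. The levels that chose the sites enter these tests too, so nothing is read from the higher shares. The halved and thinned reads, the settings without clusters, those for CAC and those by chromosome were chosen after seeing the data. No paired analysis was possible because each group had 1 library. Depth limits single sites, since a level of 20% from 20 reads has a Wilson interval of 8.07 to 41.6%.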
